A study of Mus musculus with 16 samples.

Results

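A set of 10 genes that mark inhibitory interneurons or dentate granule cells were followed across hippocampal RNA sequencing of 16 female mice. They were taken by gene name from the count table, and all 10 names were found among its 55335 genes. Of these, 7 encode neuropeptide precursors (Sst, Npy, Vip, Cck, Tac1, Penk and Pdyn) and 3 encode calcium-binding proteins (Pvalb, Calb1 and Calb2), so the set is wider than neuropeptides alone. All 10 passed the filter on low counts that left 16475 genes for testing.

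The 16 mice formed 4 groups of 4. WT-D were wild-type mice (C57BL/6J x 129S1) whose lateral ventricle received vehicle, 0.8% DMSO in artificial cerebrospinal fluid, from an osmotic pump for 28 days. WT-S were wild-type mice infused in the same way with the stearoyl-CoA desaturase (SCD) inhibitor CAY10566 at 80 µM in that vehicle. 3xTg-D and 3xTg-S were 3xTg-AD mice (B6;129-Psen1tm1MpmTg(APPSwe,tauP301L)1Lfa/Mmjax) infused with vehicle or inhibitor. Every mouse was thus operated, carried a pump, received DMSO and was sampled at 10 months of age. In 3xTg mice the human APP and tau transgenes are driven by the neuron-specific Thy1.2 element and the presenilin 1 mutation is knocked into the mouse gene. The wild-type mice were the background strain of that knock-in and are not described as littermates. The labels of treatment name the Cayman compound, while a protocol text common to all samples names another SCD inhibitor, ab142089, and the treatment labels were followed. The comparisons ask how the 3xTg genotype and SCD inhibition each bear on hippocampal transcripts, and whether the inhibitor acts differently in the 2 genotypes.

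Values are CPM, the reads on a gene scaled to a common library size (the usual counts-per-million unit), with mean ± SD over 4 mice. A gene was called differentially expressed (a DEG) at an unadjusted p of 0.01 or less, which is the study's threshold, in edgeR's two-sided quasi-likelihood test, and the Benjamini-Hochberg adjusted p over all 16475 genes is given beside it. Libraries held 15413385 to 23590149 reads on genes, and each of the 10 genes had 111 to 5640 reads in every mouse. The transcripts of choroid plexus, the secretory tissue of the ventricle, stood apart in a pair of libraries. Its 12 marker genes summed to 787 CPM in WT-D replicate 4 and 317 CPM in WT-S replicate 1, against 33.4 to 69.7 CPM in the other 14. The 10 granule cell and 10 pyramidal cell markers were detected in every group, as is usual for hippocampus. In whole tissue, fewer cells of a type and less RNA per cell cannot be told apart.

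Hippocampal interneurons release GABA and are told apart by the peptides and calcium buffers that they also make. Somatostatin (Sst) and neuropeptide Y (Npy) are typical of cells that contact dendrites, parvalbumin (Pvalb) of fast-spiking cells that contact cell bodies, cholecystokinin (Cck) of a separate class of basket cells, and vasoactive intestinal peptide (Vip) and calretinin (Calb2) of cells that inhibit other interneurons. Granule cells of the dentate gyrus carry calbindin (Calb1) and pack the opioid peptides made from prodynorphin (Pdyn) and proenkephalin (Penk) into their mossy fibres. Tac1 encodes the precursor of substance P. Peptide genes of this kind are known to respond to neuronal activity, and somatostatin is the classic example of a gene switched on by cyclic AMP through the cyclic AMP response element (CRE) in its promoter.

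The promoters of the 4 genes on which the comparisons turned are shown because 3 of them (Sst, Npy and Tac1) varied together across mice. Over 16 mice Vip correlated with Sst, Npy and Tac1 by -0.074, -0.306 and -0.145. After group means were removed these values were 0.586, 0.327 and 0.464, so that Vip varied apart from them only between groups. Promoter windows of RefSeq, from 250 bases before to 50 bases after the start of the transcript in GRCm38.p6, were found for 7 of the 10 genes, and none was given for Penk, Calb1 or Calb2. Capitals mark the CRE half-site, TGACG or its reverse complement CGTCA, searched on both strands. The windows are chr16:23890795-23891094 (minus strand) for Sst, chr6:49822460-49822759 (plus strand) for Npy, chr6:7554811-7555110 (plus strand) for Tac1 and chr10:5638968-5639267 (plus strand) for Vip.
Sst: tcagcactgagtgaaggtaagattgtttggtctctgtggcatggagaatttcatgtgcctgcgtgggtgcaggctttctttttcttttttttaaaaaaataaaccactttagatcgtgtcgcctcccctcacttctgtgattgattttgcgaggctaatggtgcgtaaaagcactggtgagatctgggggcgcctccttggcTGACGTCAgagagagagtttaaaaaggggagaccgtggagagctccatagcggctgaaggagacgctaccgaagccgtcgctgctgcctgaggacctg
Npy: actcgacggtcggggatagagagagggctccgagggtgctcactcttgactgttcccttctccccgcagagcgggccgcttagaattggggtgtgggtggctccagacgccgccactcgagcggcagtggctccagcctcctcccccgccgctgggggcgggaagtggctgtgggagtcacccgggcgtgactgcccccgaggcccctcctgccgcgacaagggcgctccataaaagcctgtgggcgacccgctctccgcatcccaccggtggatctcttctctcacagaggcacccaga
Tac1: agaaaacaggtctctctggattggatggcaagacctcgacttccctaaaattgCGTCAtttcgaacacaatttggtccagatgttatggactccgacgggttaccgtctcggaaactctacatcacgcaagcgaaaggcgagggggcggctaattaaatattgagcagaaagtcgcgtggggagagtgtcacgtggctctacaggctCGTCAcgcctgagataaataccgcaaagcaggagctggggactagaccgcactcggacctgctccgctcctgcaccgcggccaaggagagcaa
Vip: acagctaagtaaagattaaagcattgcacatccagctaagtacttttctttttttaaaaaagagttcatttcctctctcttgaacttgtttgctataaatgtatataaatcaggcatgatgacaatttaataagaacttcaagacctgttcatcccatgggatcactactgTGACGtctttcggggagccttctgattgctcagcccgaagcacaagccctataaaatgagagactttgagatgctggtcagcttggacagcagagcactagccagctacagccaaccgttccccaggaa
The Sst window held the full palindrome TGACGTCA 48 bases before the start, where the 2 half-sites overlap. Vip held 1 half-site 79 bases before its start, Tac1 held 2, at 197 and 43 bases, and Cck held 1, at 47 bases. No half-site was found in the windows of Npy, Pvalb and Pdyn. Among 32851 mouse promoter windows of 300 bases, 20.8% held a half-site and 1.79% the full palindrome. Of Sst, Npy and Tac1, which varied together across mice, Sst and Tac1 held a half-site and Npy held none. Whether these letters bear on that variation was not tested.

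Per kilobase of exon, somatostatin was the most abundant of the 10 transcripts in WT-D hippocampus and Tac1 the least. Sst stood at 169 ± 25.1 CPM per kilobase, Cck at 115 ± 7.27, Npy at 71.2 ± 7.64, and Calb1 at 41.8 ± 1.73. Lower levels were found for Pvalb (26.6 ± 4.81), Calb2 (15.7 ± 3.00), Penk (12.2 ± 0.880), Vip (6.02 ± 0.844), Pdyn (3.96 ± 0.630) and Tac1 (2.37 ± 0.560 CPM per kilobase). Calb2 and Penk overlapped between mice, whereas all other neighbours in this order were separate in the 4 WT-D mice. The exon lengths behind these levels join all annotated exons of a gene, from 566 bases for Npy to 4846 bases for Calb1. The count covers the whole gene. Only Penk shares exon sequence with another gene, 233 bases with A830012C17Rik on the opposite strand, and since the strand setting of the counting is not stated its level is less certain.

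**Figure D1:**
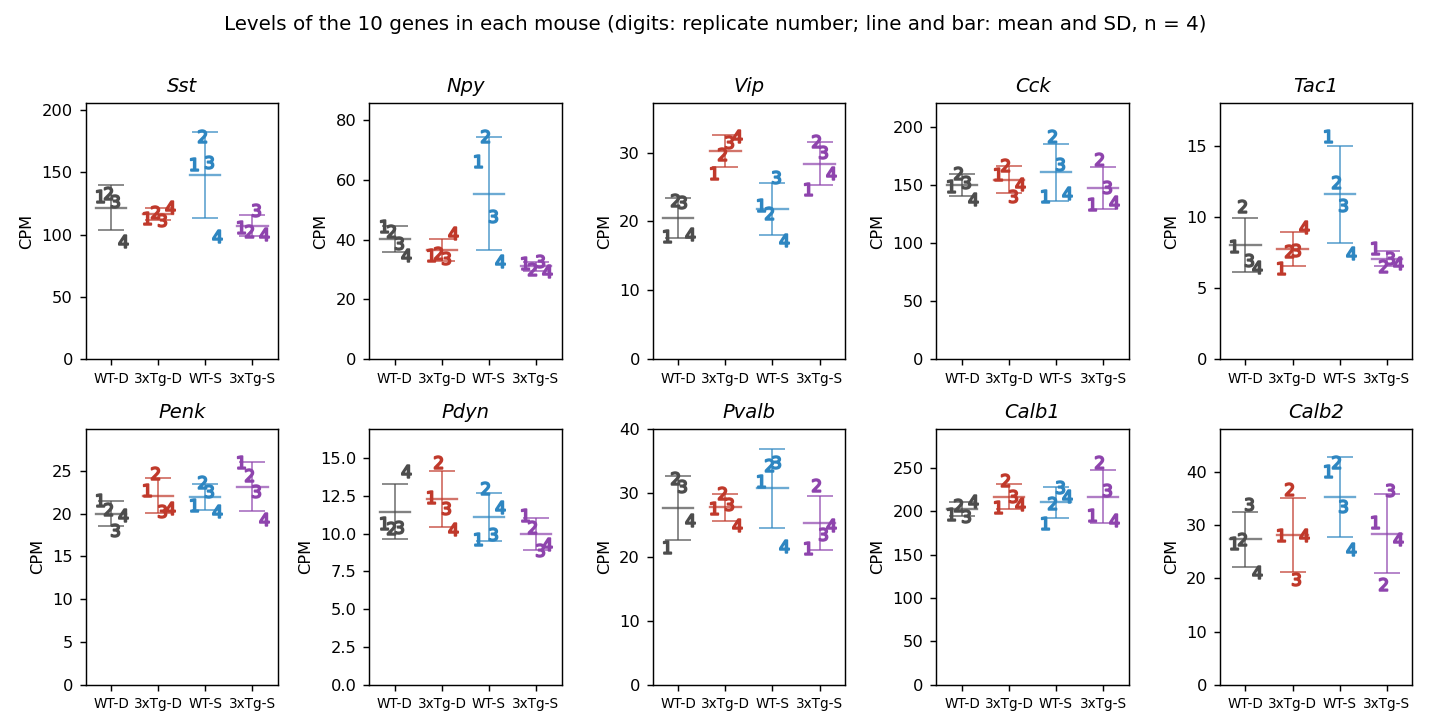
Level of each of the 10 genes in each mouse, in CPM on a linear axis from 0, by group; digits are replicate numbers, and the horizontal line and bar give the mean and SD of 4 mice. Vip sits at 27.1 to 32.4 CPM in 3xTg-D against 17.8 to 23.1 in WT-D, and Npy, Sst and Tac1 spread most widely in WT-S, where replicate 4 is the lowest.

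In the vehicle-treated 3xTg hippocampus, Vip was the DEG among the 10 genes. The peptide made from Vip widens vessels and modulates other interneurons, and its gene (chr10:5639218-5647617) is expressed mainly in interneuron-selective cells. In WT-D mice Vip stood at 17.8, 23.1, 22.8 and 18.2 CPM in replicates 1 to 4. In 3xTg-D mice it stood at 27.1, 29.8, 31.6 and 32.4 CPM. Every 3xTg-D mouse lay above every WT-D mouse. The means were 30.2 ± 2.34 and 20.5 ± 2.87 CPM, and Vip rose by a log2 fold change of 0.56 (SE 0.10, 95% interval 0.34 to 0.78, adjusted p = 0.0175). Leaving out each mouse in turn gave 0.50 to 0.63, with Vip called in 8 of 8 fits.

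The 1 call among 10 genes compares with 4.91% of all tested genes called in either direction and 2.44% called higher, and at an adjusted p of 0.05 or less, which Vip also met, with 1.85% called. Groups that did not overlap were found in 8.17% of all tested genes. The other 9 log2 fold changes lay between -0.14 (Npy, 95% interval -0.35 to 0.07) and 0.15 (Penk, 95% interval -0.04 to 0.33), and the median over the 10 was 0.05. Sst (-0.06, 95% interval -0.28 to 0.16) passed the threshold only when WT-D replicate 4 was left out, at -0.17. Of markers for neighbouring tissue, the 6 neocortex genes summed to 140 to 185 CPM in 3xTg-D and 127 to 162 CPM in WT-D, with none at 0, and overlapped between groups. Their part in the Vip difference was not tested. The choroid plexus genes were high in 1 of the WT-D libraries, replicate 4, without which Vip was still called.

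Among inhibitor-treated mice, Npy and Tac1 were lower in 3xTg-S than in WT-S. Neuropeptide Y damps transmitter release from principal cells, and its gene lies at chr6:49822710-49829507. In WT-S mice Npy stood at 66.5, 74.7, 48.0 and 32.8 CPM in replicates 1 to 4. In 3xTg-S mice it stood at 32, 30.3, 32.8 and 29.4 CPM. The groups did not overlap, but the margin was slight, since the lowest WT-S mouse and the highest 3xTg-S mouse both round to 32.8. Npy fell, with a log2 fold change of -0.85 (SE 0.21, 95% interval -1.32 to -0.39, adjusted p = 0.0987).

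Tac1 (chr6:7554879-7565834) was the gene with the lowest level. It stood at 15.7, 12.4, 10.8 and 7.49 CPM in WT-S mice. In 3xTg-S mice the values were 7.78, 6.58, 7.13 and 6.75 CPM. Replicate 4 of WT-S lay within the range of 3xTg-S, so that these groups overlapped. Tac1 fell, with a log2 fold change of -0.74 (SE 0.20, 95% interval -1.17 to -0.30, adjusted p = 0.13).

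Sst (chr16:23889573-23890958) lay just outside the threshold. It stood at 157, 179, 159 and 98.5 CPM in WT-S mice and at 106, 103, 119 and 101 CPM in 3xTg-S mice. As for Tac1, replicate 4 of WT-S was the exception, below all 4 of the 3xTg-S mice. The log2 fold change was -0.48 (SE 0.16, 95% interval -0.83 to -0.14, adjusted p = 0.243). Vip ran the other way, at 22.3, 21.2, 26.5 and 17.4 CPM in WT-S mice and 24.7, 31.6, 30.1 and 27.1 CPM in 3xTg-S mice. Its log2 fold change was 0.36 (SE 0.13, 95% interval 0.07 to 0.65, adjusted p = 0.315), which missed the threshold.

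The 2 calls among 10 genes, both lower, compare with 4.26% of all tested genes called in this comparison and 2.47% called lower, and 6.75% of all tested genes had groups that did not overlap. At an adjusted p of 0.05 or less edgeR called none of the 10 and 1.4% of all tested genes. An unadjusted p below 0.05 was found for 4 of the 10 (Npy, Tac1, Sst and Vip) and 10.7% of all tested genes, and DESeq2 called 3 of the 10 at 0.01. The median log2 fold change was -0.23 over the 10 genes, with 7 below 0, and under 0.01 for all tested genes. Single WT-S mice decided calls here. Without WT-S replicate 1, Tac1 missed the threshold (-0.56). Without replicate 3, Vip passed it (0.47). Without replicate 4, the calls were 4 of 10, as Sst (-0.64) and Pvalb (-0.43) joined Npy and Tac1.

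**Figure D2:**
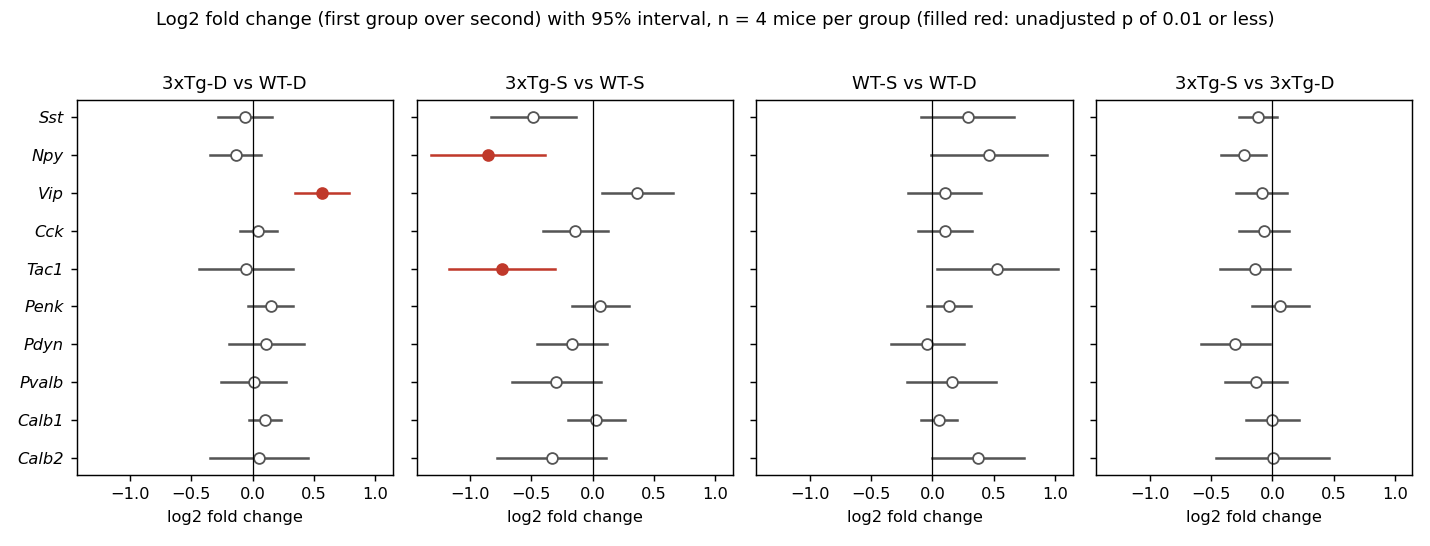
Log2 fold changes of the 10 genes in the 4 direct comparisons (first group over second) with 95% intervals from edgeR, 4 mice per group; filled red points have an unadjusted p of 0.01 or less. Vip lies above 0 in 3xTg-D vs WT-D (0.56) and Npy (-0.85) and Tac1 (-0.74) lie below 0 in 3xTg-S vs WT-S, while no point is filled in the remaining panels.

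In wild-type mice, 3 of the 4 inhibitor-treated animals had higher Sst and Npy than every vehicle-treated animal, but no difference passed the test. In WT-D mice Npy stood at 44.5, 43.0, 38.7 and 35.0 CPM and Sst at 131, 133, 127 and 94.7 CPM, in replicates 1 to 4. Tac1 stood at 7.98, 10.8, 7.01 and 6.49 CPM. WT-S replicates 1 to 3 lay above 4 of 4 WT-D mice for Npy and Sst, and for Tac1 replicate 3 was level with the highest WT-D mouse at this precision. WT-S replicate 4 lay within the range of WT-D for Sst and Tac1, and below it for Npy.

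Calb2, the calretinin gene (chr8:110137502-110168210), stood at 26.7, 27.5, 33.9 and 21.1 CPM in WT-D and 40.2, 41.9, 33.6 and 25.6 CPM in WT-S mice. Here replicates 1 and 2 of WT-S lay above the range of WT-D. The log2 fold changes of WT-S over WT-D were 0.53 for Tac1 (95% interval 0.03 to 1.02), 0.46 for Npy (-0.01 to 0.93), 0.37 for Calb2 (from just below 0 to 0.75) and 0.29 for Sst (-0.09 to 0.67), each with an adjusted p of 1.00. None of the 10 genes was called by edgeR or DESeq2, while 0.188% of all tested genes were called by edgeR. An unadjusted p below 0.05 was found for 1 of the 10, Tac1, and for 2.25% of all tested genes.

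No label pairs WT-S with WT-D mice. Their same-numbered mice deviated together over all genes in these same counts, so a fit with the number as a block was also run. In it 4 of the 10 genes were called, all higher. These were Sst (0.27), Tac1 (0.51), Calb2 (0.37) and Npy (0.41), each with an adjusted p of 0.92. In that fit 0.698% of all tested genes were called and 0.2% were called higher. The same 4 genes were called without the block when WT-S replicate 4 was left out, with log2 fold changes of 0.44 for Sst, 0.65 for Npy, 0.69 for Tac1 and 0.50 for Calb2. When both libraries with choroid plexus transcripts, WT-D replicate 4 and WT-S replicate 1, were left out, no gene was called and the log2 fold changes were 0.15 for Sst, 0.30 for Npy, 0.25 for Tac1 and 0.19 for Calb2. That alternative was chosen after seeing the data, and the part of choroid plexus in these differences was not tested. WT-S replicate 4 was the lowest of its group for 7 of the 10 genes (Sst, Npy, Vip, Tac1, Penk, Pvalb and Calb2), and 13.1% of its reads lay outside annotated genes, against 8.55 to 10.4% in the other WT-S libraries. In 3xTg-S replicates 1 to 4 the share was 12.8, 7.82, 12.0 and 15.1%. Over 16 mice it correlated below 0 with all 10 genes, from -0.079 for Calb2 to -0.776 for Cck, with -0.516 for Sst, -0.448 for Npy and -0.374 for Tac1.

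In 3xTg mice the inhibitor was followed by no call among the 10 genes. Npy stood at 34.9, 35.6, 33.8 and 42.1 CPM in 3xTg-D mice, and all 4 of the 3xTg-S mice lay below them. The log2 fold change was -0.23 (SE 0.08, 95% interval -0.42 to -0.05, adjusted p = 0.722). Groups that did not overlap were found in 3.16% of all tested genes in this comparison. Pdyn, the dynorphin precursor of granule cells (chr2:129686565-129699844), stood at 12.4, 14.7, 11.7 and 10.3 CPM in 3xTg-D and 11.2, 10.4, 8.93 and 9.29 CPM in 3xTg-S mice, which overlapped, with a log2 fold change of -0.30 (SE 0.13, adjusted p = 0.722). Neither edgeR nor DESeq2 called any of the 10, while 0.904% of all tested genes were called by edgeR. An unadjusted p below 0.05 was found for 2 of the 10, Npy and Pdyn, and for 6.33% of all tested genes. For Vip the log2 fold change was -0.09 (95% interval -0.29 to 0.12). For Sst the log2 fold change was -0.12 (95% interval -0.27 to 0.04), from 113, 118, 112 and 122 CPM in 3xTg-D mice.

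Set against vehicle-treated wild-type mice, 3xTg-S hippocampus had more Vip and less Npy. Vip rose by a log2 fold change of 0.46 (SE 0.11, adjusted p = 0.0828) and Npy fell, with a log2 fold change of -0.39 (SE 0.08, adjusted p = 0.0524). In both cases the groups did not overlap. The 2 calls compare with 5.69% of all tested genes called, 2.26% higher and 3.43% lower, and 9.55% had groups that did not overlap. With the spread estimated over all 16 mice, Npy missed the threshold (-0.38). Sst (-0.20) passed it when WT-D replicate 4 was left out (-0.30). The 6 neocortex genes summed to 164 to 214 CPM in 3xTg-S and 127 to 162 CPM in WT-D, without overlap. In WT-S they summed to 131 to 167 CPM, which overlapped with 3xTg-S. Most of the difference from WT-D lay in 1 gene, Tshz2, with means of 97.7 ± 20.6 CPM in 3xTg-S and 63.0 ± 11.9 CPM in WT-D. Taken singly, each of the 6 genes overlapped between 3xTg-S and WT-D. The part of these 6 genes in the Vip differences was not tested. The comparison of 3xTg-S and WT-D shares its WT-D mice with the comparison of 3xTg-D and WT-D, and its 3xTg-S mice with those above.

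The difference between the inhibitor effect in 3xTg and in WT mice was tested as an interaction over the 16 mice. It was below 0 for all 10 genes, with a median of -0.27 against 0.01 over all tested genes, and none of the 10 passed the threshold in edgeR. The share of all tested genes below 0 was not counted. The 10 values also rest on the same 16 mice, so their common sign is a description only. The largest were Npy (-0.69, 95% interval -1.22 to -0.16), Tac1 (-0.67, -1.25 to -0.08) and Sst (-0.40, -0.82 to 0.02), each with an adjusted p of 0.788. An unadjusted p below 0.05 was found for 2 of the 10, Npy and Tac1, and for 4.98% of all tested genes, DESeq2 called 1 of the 10, Npy, and edgeR called 0.595% of all tested genes. Without WT-S replicate 4, Sst (-0.57), Npy (-0.89) and Tac1 (-0.84) were called, and without WT-D replicate 2 Tac1 was called (-0.84). Without both libraries with choroid plexus transcripts, the values were -0.54 for Npy, -0.41 for Tac1 and -0.28 for Sst, while Pdyn stood at -0.45 against -0.26 with all 16 mice, and none was called. With the share of reads outside genes as a covariate, Penk (0.039) and Calb1 (0.043) lay above 0.

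**Figure D3:**
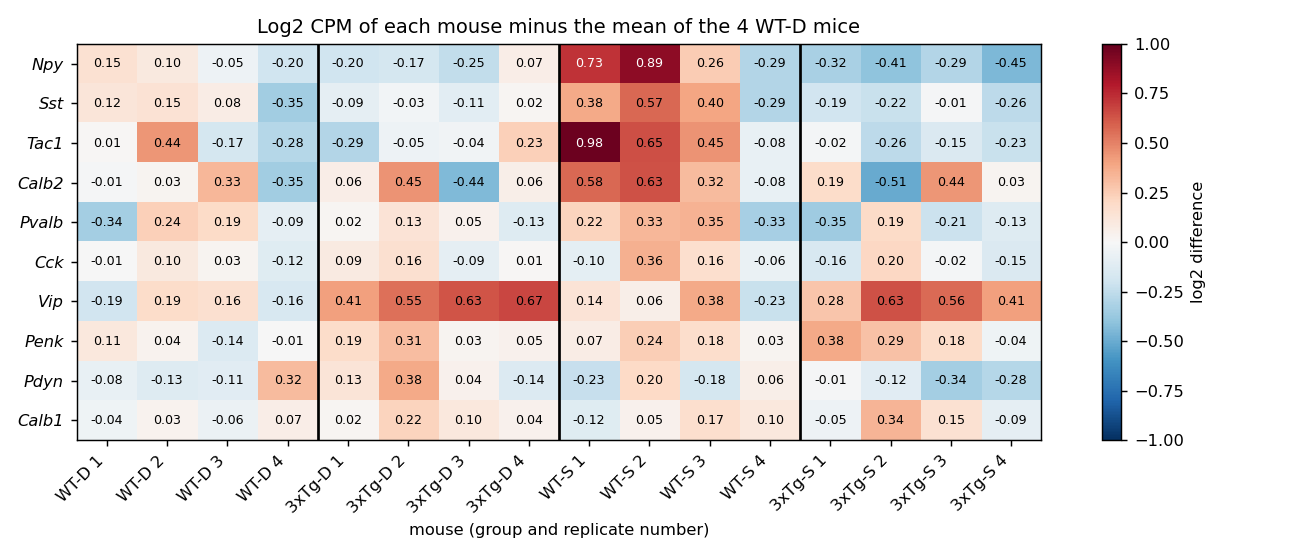
Log2 CPM of the 10 genes (rows) in each of the 16 mice (columns), as the difference from the mean of the 4 WT-D mice; red is higher and blue lower, and black lines separate the groups. Npy, Sst, Tac1 and Calb2 are red together in WT-S replicates 1 to 3 and near or below 0 in replicate 4, whereas Vip is red across 3xTg-D and 3xTg-S.

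Over both treatments, Vip was mostly higher in 3xTg mice, although 3xTg-S and WT-S overlapped and Vip was not called between them. Of the 8 3xTg mice, 7 lay above the highest of the 8 WT mice (26.5 CPM, WT-S replicate 3), the exception being 3xTg-S replicate 1 at 24.7 CPM. No 3xTg mouse lay above the WT range for Sst, Npy, Tac1, Cck, Pvalb or Calb2, and 4 of the 8 lay below it for Npy. These 4 were the 3xTg-S replicates. The share of all tested genes with such separation between genotypes was not counted, so these pooled counts are a description only.

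Parvalbumin, cholecystokinin and the granule cell genes were not called in any of these comparisons. Pvalb (chr15:78191114-78206400) had means of 27.6 ± 5.01 CPM in WT-D and 30.7 ± 6.15 CPM in WT-S mice, and of 27.7 ± 2.04 CPM in 3xTg-D and 25.2 ± 4.24 CPM in 3xTg-S mice. Cck (chr9:121489824-121495694), which pyramidal cells express as well, had means of 150 ± 9.49, 161 ± 24.2, 155 ± 11.5 and 147 ± 17.9 CPM in the same order.

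Of the granule cell genes, Calb1 (chr4:15881264-15908064) buffers calcium in granule cells and in CA1 pyramidal cells, and had means of 203 ± 8.38 and 210 ± 17.6 CPM in WT-D and WT-S mice and of 217 ± 14.1 and 217 ± 30.6 CPM in 3xTg-D and 3xTg-S mice. Its log2 fold changes in the 4 direct comparisons lay between 0.00 and 0.10. Penk (chr4:4133531-4138819) had means of 20.0 ± 1.44, 21.9 ± 1.51, 22.1 ± 2.05 and 23.1 ± 2.85 CPM in that order, and Pdyn had means of 11.4 ± 1.82, 11.1 ± 1.58, 12.3 ± 1.85 and 9.98 ± 1.07 CPM. The 95% intervals of Calb1 in the direct comparisons reached at most 0.27 on the log2 scale, so that a larger rise lay outside them. Calb2 spread widely within the 3xTg groups, at 28.2, 36.8, 19.8 and 28.1 CPM in 3xTg-D and 30.7, 18.9, 36.6 and 27.4 CPM in 3xTg-S.

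Across mice, the 10 genes did not vary as 1 block. As a description over 16 mice, which share group, library depth and dissection, the gene whose log2 CPM was most like that of Sst was Npy (Pearson's r = 0.92), also after group means were removed (r = 0.87). The gene most like Npy was Cort (r = 0.92), which encodes the somatostatin relative cortistatin, and the gene most like Tac1 was Npy (r = 0.89). Vip was most like Rfesd (r = 0.95), Pvalb most like Kif5a (r = 0.90), Cck most like Tmem250-ps (r = 0.94), Calb2 most like Fzd1 (r = 0.81), Calb1 most like Gm13091 (r = 0.91), Penk most like Mir703 (r = 0.86) and Pdyn most like Chadl (r = 0.82).

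The receptors of these peptides were tested for 15 of 19 genes, the remainder having too few reads. Vipr2, a receptor for the Vip peptide, stood at 1.17, 0.985, 0.688 and 0.868 CPM in WT-S mice. In 3xTg-S mice it stood at 0.262, 0.477, 0.385 and 0.27 CPM, below all of them. These levels rest on few reads, 25, 19, 15 and 16 in WT-S and 4, 10, 6 and 5 in 3xTg-S replicates 1 to 4. Vipr2 fell, with a log2 fold change of -1.39 (SE 0.32, adjusted p = 0.0708). Npy2r, a presynaptic receptor for neuropeptide Y, rose in the same comparison (0.27, SE 0.08, adjusted p = 0.165), as did the delta opioid receptor gene Oprd1 (0.34, SE 0.09, adjusted p = 0.141). The other 12 receptor genes tested did not pass, and 4.26% of all tested genes were called in that comparison. Against WT-D, 3xTg-S mice had less Vipr2 (-1.25, adjusted p = 0.0883), the 1 receptor gene called there. Oprd1 also passed the interaction test (0.39, adjusted p = 0.788).

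Of 11 further neuropeptide genes tested, Cort passed the test in 3xTg-S over WT-S. It stood at 6.90, 6.94, 4.54 and 2.98 CPM in WT-S and at 1.90, 1.81, 2.38 and 2.27 CPM in 3xTg-S mice, and the groups did not overlap. Cort fell, with a log2 fold change of -1.37 (SE 0.27, adjusted p = 0.0322). Against WT-D its log2 fold change in 3xTg-S was -0.80 (adjusted p = 0.114), also called. Like Sst, Npy and Tac1, Cort was lowest in replicate 4 among WT-S mice. Of 12 genes for peptide processing and dense-core vesicles, Vgf, a granin-like precursor, fell in 3xTg-D against WT-D (-0.34, SE 0.08, adjusted p = 0.0874), and the other 11 did not pass. Vgf was likewise the 1 of 12 called in 3xTg-S against WT-D (-0.30, adjusted p = 0.14).

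General interneuron genes were called in one direction, higher. Of 21 tested, 3 rose in 3xTg-D against WT-D, where 2.44% of all tested genes were called higher. These were Htr3a, a serotonin receptor subunit (0.72, SE 0.17, adjusted p = 0.0636), Lhx6 (0.29) and Dlx1 (0.27), the latter pair being developmental transcription factors. Of the 21 log2 fold changes there, 15 lay above 0 and 6 below. Lhx6 also rose in WT-S against WT-D (0.27), where 0.0789% of all tested genes were called higher and none met an adjusted p of 0.05 or less. The potassium channel gene Kcnc2 rose in 3xTg-S against WT-S (0.29), where 1.79% were called higher. The count was highest in 3xTg-S against WT-D, where 5 of 21 rose, against 2.26% of all tested genes. These were Lhx6 (0.41, adjusted p = 0.019), Kcnc2 (0.31, adjusted p = 0.0516), and Nos1 (0.43), Cnr1 (0.22) and Satb1 (0.21), the last 3 named after their values were seen. All calls of Lhx6 share the same WT-D mice, and Lhx6 was not called in 3xTg-S against WT-S. None of the 21 was called lower in any comparison. At an adjusted p of 0.05 or less, only Lhx6 in 3xTg-S against WT-D passed, and none of the 21 passed in the other comparisons. Gad1, which makes GABA, had means of 358 ± 17.8 CPM in WT-D and 389 ± 39.3 CPM in WT-S mice, and of 366 ± 31.1 CPM in 3xTg-D and 375 ± 23.3 CPM in 3xTg-S mice. The 21 interneuron genes together summed to 1876 to 2078 CPM in WT-D and 2024 to 2116 CPM in WT-S mice, and to 1827 to 2290 CPM in 3xTg-D and 2070 to 2359 CPM in 3xTg-S mice. Exons of Lhx6 and Dlx1 overlap other transcripts, so their levels are less certain.

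**Figure D4:**
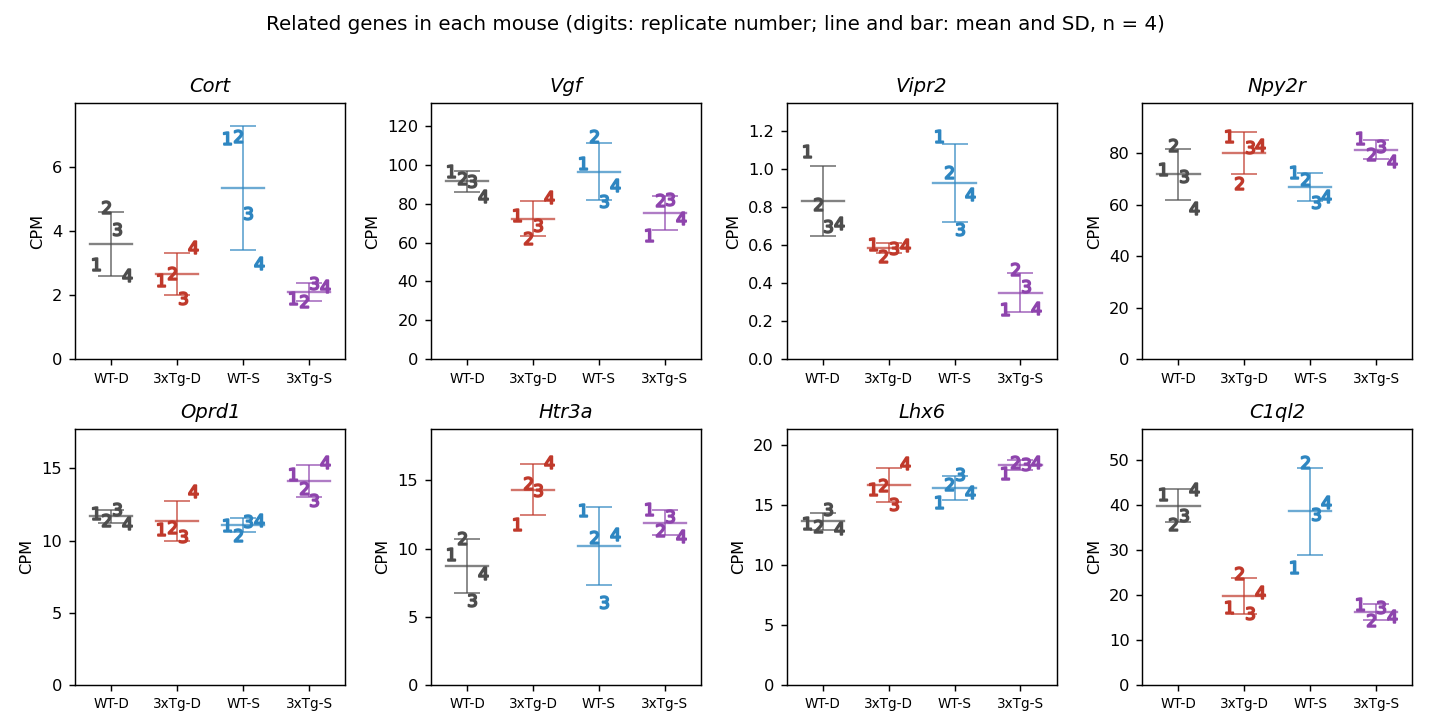
Levels in CPM, on linear axes from 0, of 8 genes related to the peptides, in each mouse by group; digits are replicate numbers, and the line and bar give the mean and SD of 4 mice. Cort in WT-S runs from 2.98 to 6.94 CPM with replicate 4 lowest, as Npy does, and Vipr2 is below 0.48 CPM in all 4 of the 3xTg-S mice.

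Granule cell genes other than the peptides were called in 2 of 10 cases in each comparison of genotypes. Of all tested genes, 4.91% were called in 3xTg-D against WT-D and 4.26% in 3xTg-S against WT-S. C1ql2, a synaptic organizer of mossy fibres, fell in 3xTg-D against WT-D (-1.01, SE 0.13, adjusted p = 0.00232) and in 3xTg-S against WT-S (-1.27, SE 0.17, adjusted p = 0.00401). Lct fell in 3xTg-D against WT-D (-0.42) and Sema5b rose in 3xTg-S against WT-S (0.40). C1ql2 (-1.32) and Lct (-0.53) were the 2 of 10 called in 3xTg-S against WT-D, both lower. Pdyn, Penk and Calb1 were not called beside them. Of 11 immediate early genes, which neuronal activity induces, 11 lay below 0 in 3xTg-D over WT-D and 1, Nr4a1, fell (-0.78, SE 0.18, adjusted p = 0.0589). Their sum was 239 to 283 CPM in 3xTg-D and 288 to 424 CPM in WT-D, without overlap but by a slight margin, and its part in the Vip difference was not tested. Taken singly, 1 of the 11 had groups that did not overlap, against 8.17% of all tested genes. In 3xTg-S over WT-S, Bdnf fell (-0.50, SE 0.09, adjusted p = 0.0243), although its exons overlap an antisense gene, and it was also the 1 of 11 called in 3xTg-S over WT-D (-0.38, adjusted p = 0.0562).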

How the data were processed

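Hippocampal RNA of 16 female mice, 4 per group by the sample labels, was sequenced as single-end mRNA libraries. The authors trimmed reads with Trimmomatic 0.35, aligned them to GRCm38 with STAR 2.5.1b and Gencode M23 annotation, and deposited raw read counts per gene. The strand setting and any use of molecular identifiers in counting are not given in the sources used here.

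Counts were analysed in R 4.3.3 with edgeR 4.0.16 (filterByExpr over 16 mice, minimum count 10 and total 15, TMM scaling, glmQLFTest), pairwise over 8 mice and over 16 for the interaction. Log2 CPM used a prior count of 2. Alternatives were DESeq2 1.42.0, median-ratio size factors, no filter, a replicate block, one fit over 16 mice, the share of reads outside genes as covariate, and each mouse left out. The code was tested on simulated data. All 10 genes were named in every comparison; of the related lists, genes with p of 0.01 or less in the 4 direct comparisons or the interaction, at most 3 per list and comparison, with calls in 3xTg-S over WT-D given beside them; and per gene the most correlated gene. The genes and lists were chosen with earlier results of these data known. Nothing states that replicates share a litter or batch; same-numbered WT-S and WT-D mice deviated together over all genes in 4 of 4 pairs (correlations 0.114 to 0.34), so their blocked fit is given. Gene overlaps and exon lengths came from Gencode M21. Replicates are separate mice.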

Additional observations from a re-analysis of the deposited data

Results flagged for a closer look

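In 2 of 40 sets of 4 mice (10 genes in 4 groups), 1 mouse lay far from the other 3. Both concern WT-D replicate 4, the library with the highest choroid plexus transcripts. Sst stood at 94.7 CPM there, with the nearest WT-D mouse at 127 CPM and a gap of 0.833 of the group's range. Pdyn stood at 14.1 CPM there, with the nearest at 10.7 CPM and a gap of 0.906 of the range. Both gaps exceed the 95% critical value of Dixon's test for 4 values, which chance alone passes in about 1 of 20 sets.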

How the results depend on the processing

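The number of the 10 genes called in 3xTg-D over WT-D was 1 under each alternative setting run (DESeq2, median-ratio size factors, no filter, replicate block, 16 mice in one fit, the covariate and an adjusted p of 0.05) and 1 to 2 when single mice were left out. In 3xTg-S over WT-S it was 4 with no filter, with the replicate block and with 16 mice in one fit, 0 at an adjusted p of 0.05, and 1 to 4 when single mice were left out; Vip passed the threshold in 4 of these settings, the covariate included. In WT-S over WT-D it was 2 with no filter (Npy and Tac1), 4 with the replicate block, and 0 to 4 when single mice were left out. In 3xTg-S over 3xTg-D it was 1 (Npy) with no filter. In 3xTg-S over WT-D it was 1 with 16 mice in one fit, 0 at an adjusted p of 0.05, and 2 to 3 when single mice were left out. In the interaction it was 1 with DESeq2 (Npy), 2 with no filter (Npy and Tac1), 1 with the replicate block (Npy), and 0 to 3 when single mice were left out. The causes of these shifts were not tested.

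No called gene changed direction. Signs turned only for log2 fold changes close to 0. With the covariate, Cck (-0.011), Pvalb (-0.040) and Calb2 (-0.079) lay below 0 in 3xTg-D over WT-D, Cck (0.006) above and Calb2 (-0.102) below it in 3xTg-S over 3xTg-D, Calb2 (-0.023) below it in 3xTg-S over WT-D, and Penk (0.039) and Calb1 (0.043) above it in the interaction. In 3xTg-S over 3xTg-D, Calb1 was -0.004 with DESeq2 and with median-ratio size factors, -0.023 with no filter and -0.007 with the block, and Calb2 was -0.003 with median-ratio size factors, -0.026 with no filter and -0.009 with the block. Pdyn in WT-S over WT-D was 0.134 without both libraries with choroid plexus transcripts.

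Leaving out single mice also turned signs, over ranges of -0.092 to 0.051 for Calb1 and -0.154 to 0.155 for Calb2 in 3xTg-S over 3xTg-D, -0.007 to 0.143 for Calb1, -0.113 to 0.193 for Calb2 and -0.123 to 0.001 for Cck in 3xTg-S over WT-D, and -0.066 to 0.090 for Calb1 in 3xTg-S over WT-S. In 3xTg-D over WT-D the ranges were -0.108 to 0.188 for Calb2, -0.001 to 0.089 for Cck, -0.102 to 0.091 for Pvalb and -0.155 to 0.117 for Tac1. In WT-S over WT-D they were -0.127 to 0.073 for Pdyn and -0.010 to 0.195 for Vip, and in the interaction -0.127 to 0.002 for Penk.

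The rule used, that every same-numbered pair correlate above 0.1 over all genes, was met only by WT-S and WT-D (mean 0.217). The rule was applied to these same counts, and no label states a pairing. In the other comparisons same-numbered mice correlated by -0.101 to 0.496, with at least 1 pair under 0.1 in each. Those mice were left unpaired, although the mean in 3xTg-S over WT-S was 0.241. There the block moved the calls among the 10 genes from 2 to 4 in 3xTg-S over WT-S and from 0 to 1 in the interaction, and in 3xTg-S over WT-S it moved the calls among all genes from 702 to 1339. Among all genes the block also moved the calls from 149 to 1133 in 3xTg-S over 3xTg-D and from 98 to 624 in the interaction, and by less than 1.5 times in the other comparisons of unpaired mice. The lowest count of any of the 10 genes in a mouse was 111 reads, and 4 mice per group limit the precision.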

Other observations

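Markers of other hippocampal cells and of neighbouring tissue were also tested. Of all tested genes, 4.91% were called in 3xTg-D over WT-D and 4.26% in 3xTg-S over WT-S. In the first, 1 of 10 pyramidal cell, 1 of 7 striatum and 2 of 8 choroid plexus genes were called. In the second, 2 of 10 pyramidal cell, 1 of 7 striatum, 1 of 6 neocortex and 1 of 3 Cajal-Retzius cell genes were called. Of 10 pyramidal cell genes, Spink8 was higher in 3xTg-D than in WT-D (log2 fold change 1.13, adjusted p = 0.000453 in edgeR) and in 3xTg-S than in WT-S (1.26, adjusted p = 0.0231), and Bok was lower in 3xTg-S than in WT-S (-0.58, adjusted p = 0.232), with overlapping groups. Of 7 striatum genes, Rgs9, a regulator of G protein signalling, fell in 3xTg-D against WT-D mice (-0.82, adjusted p = 0.0149) and in 3xTg-S against WT-S mice (-0.55, adjusted p = 0.165).

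In 3xTg-S over WT-S, the neocortex gene Tshz2 (0.62, adjusted p = 0.157, groups overlapping) was higher and Ebf3 (-0.81, adjusted p = 0.178), 1 of 3 Cajal-Retzius cell genes tested, was lower. Exons of both overlap transcripts on the opposite strand. In 3xTg-D over WT-D, the choroid plexus genes Ttr (-4.89, adjusted p = 0.178) and F5 (-2.58, adjusted p = 0.197) were lower, beside the WT-D library with high choroid plexus transcripts. In 3xTg-S over WT-D the same lists gave Spink8 (1.28), Rgs9 (-0.79), Tshz2 (0.62), Ttr (-5.88) and F5 (-2.97) as called. None of 3 mossy cell genes and 7 thalamus genes was called in the comparisons of genotypes or of treatments.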
